A study of Mus musculus with 8 samples.

Results

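The promoters of chemosensory receptor genes were examined in GS (germline stem) cells, spermatogonia that are grown in culture and keep stem cell activity. Members were all genes of the deposited promoter table whose symbol begins with Olfr, Vmn1r, Vmn2r, Taar, Tas1r or Tas2r followed by a digit. The rule used gene names only and found 26 of 9224 genes, with 122 of 203645 measured cytosines (sites) that belonged to 84 CpGs. There were 20 odorant receptor genes (Olfr, 91 sites), 3 vomeronasal receptor genes of family 1 (Vmn1r, 15 sites), 1 of family 2 (Vmn2r60, 11 sites), the trace amine-associated receptor gene *Taar6* (1 site) and the sweet taste receptor gene *Tas1r2* (4 sites). No bitter taste receptor gene (Tas2r) was among them.

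Reduced representation bisulfite sequencing (RRBS) had been performed on 8 B6 GS cell lines that the labels give as wild type, with 1 library per line. It sequences fragments cut by MspI, an enzyme that recognizes CCGG, and the percentage of reads that keep a cytosine after bisulfite treatment is the methylation level of a site. The 4 control-F1 lines (29, 37, 44 and 45) came from mice conceived by natural mating, and the 4 ICSI-F1 lines (11, 17, 20 and 21) from mice conceived by intracytoplasmic sperm injection (ICSI), the microinjection of a spermatozoon into an oocyte. All lines had been started from CD9-expressing spermatogonia that were sorted from mature testes, and the comparison asks whether conception by ICSI is accompanied by a changed promoter methylation in the germline. The methods name green mice, which carry a ubiquitous *Egfp* transgene, as sperm donors for ICSI, and whether the lines carry it is not given in the sources used here. Each line has the number of an F1 mouse of the study, although its labels do not name the animal, and p-values measure the spread between these lines. The source labels of lines 29, 37, 11 and 17 name the kind of conception and those of lines 44, 45, 20 and 21 do not. These 2 label sets cross the groups, each set with 2 control-F1 and 2 ICSI-F1 lines, and differences are also given within them.

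Chemosensory receptors are G protein-coupled receptors at the surface of sensory cells of the nose and tongue. A mature olfactory neuron transcribes a single odorant receptor gene from one of its alleles, and the other receptor genes in it stay silent within heterochromatin. The genes lie in large clusters that grew by duplication, in AT-rich DNA with few CpG islands and many repeats. Vomeronasal receptors detect pheromones and other cues from animals, and trace amine-associated receptors detect volatile amines. In most cells outside these organs most of the genes are silent.

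The sequences that carry the main differences are shown first. All are the plus strand of GRCm38 (mm10), written 5′ to 3′ from the RefSeq copy of that assembly, with the CpGs that were measured in capitals. The first 2 hold the 6 cytosines that were lower in ICSI-F1 lines, upstream of *Olfr212* (chr6:116506275-116506441) and *Vmn2r60* (chr7:42107095-42107298).
Olfr212: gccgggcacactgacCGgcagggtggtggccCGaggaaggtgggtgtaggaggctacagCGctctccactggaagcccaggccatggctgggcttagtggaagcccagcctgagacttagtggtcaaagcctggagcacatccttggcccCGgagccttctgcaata
Vmn2r60: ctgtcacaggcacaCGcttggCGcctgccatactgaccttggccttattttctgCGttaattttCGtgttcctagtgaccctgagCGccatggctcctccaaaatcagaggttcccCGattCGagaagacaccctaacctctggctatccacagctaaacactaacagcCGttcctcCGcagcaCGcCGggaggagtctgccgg

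The next 2 hold 7 of the 10 cytosines that were higher in ICSI-F1 lines, upstream of *Vmn1r12* (chr6:57155925-57156213) and *Olfr705* (chr7:106877497-106877677). They are shown with the window of *Olfr532* (chr7:140422343-140422524), which resembles both over its whole length but was almost fully methylated in every line, and with that of *Olfr934* (chr9:38988857-38988991), a window of another sequence with 1 more such cytosine.
Vmn1r12: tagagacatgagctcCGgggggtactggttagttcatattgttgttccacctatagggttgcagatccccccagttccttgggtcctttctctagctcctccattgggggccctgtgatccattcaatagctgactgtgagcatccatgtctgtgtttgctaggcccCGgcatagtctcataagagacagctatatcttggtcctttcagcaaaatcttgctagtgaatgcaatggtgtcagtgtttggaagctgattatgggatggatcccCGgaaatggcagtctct
Olfr705: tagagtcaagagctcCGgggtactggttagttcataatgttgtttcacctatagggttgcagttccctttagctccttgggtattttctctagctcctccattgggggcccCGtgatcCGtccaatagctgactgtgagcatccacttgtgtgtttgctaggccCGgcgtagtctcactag
Olfr532: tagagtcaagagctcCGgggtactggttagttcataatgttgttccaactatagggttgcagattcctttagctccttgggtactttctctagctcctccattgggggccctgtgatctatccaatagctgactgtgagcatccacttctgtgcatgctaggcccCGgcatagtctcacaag
Olfr934: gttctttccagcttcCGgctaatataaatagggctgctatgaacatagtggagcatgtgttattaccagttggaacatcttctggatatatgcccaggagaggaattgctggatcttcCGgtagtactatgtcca

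The last pair of windows, close to a gene start, is shown because they lie at opposite ends of the range of levels. They are that of *Olfr658* (chr7:104647305-104647537), where methylation was low, and that of *Tas1r2* (chr4:139653450-139653536), where it was nearly complete.
Olfr658: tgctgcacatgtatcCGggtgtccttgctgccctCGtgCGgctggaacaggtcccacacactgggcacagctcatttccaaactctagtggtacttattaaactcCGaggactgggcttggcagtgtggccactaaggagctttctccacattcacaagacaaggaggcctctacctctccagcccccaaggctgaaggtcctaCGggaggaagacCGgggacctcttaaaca
Tas1r2: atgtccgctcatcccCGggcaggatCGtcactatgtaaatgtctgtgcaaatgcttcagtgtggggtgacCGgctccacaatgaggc

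The table covered a small share of the receptor genes. The GENCODE M21 annotation of the same assembly lists 1797 genes by the naming rule, and 309 of them (17.2%) have a CCGG within the 1000 bases before the gene start, against 74.6% of 20421 other protein-coding genes. The 26 measured genes were 1.45% of the annotated receptor genes and 8.41% of those with a CCGG, whereas the table held 40.2% of the other protein-coding genes and 53.7% of those with a CCGG. By family, it held 20 of 1407 Olfr, 3 of 210 Vmn1r, 1 of 121 Vmn2r, 1 of 16 Taar, 1 of 3 Tas1r and 0 of 40 Tas2r genes. The values below therefore describe the few receptor promoters with sites in the deposited table, and the other receptor promoters were not analysed here. All 26 genes are typed as protein-coding in M21, including *Olfr1315-ps1*, whose symbol marks a pseudogene.

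The measured promoters were poor in CpGs and rich in repeats. The 1000 bases upstream of the 26 genes had a median GC content of 43.3% and 8 CpGs, a ratio of observed to expected CpGs of 0.178, and 46.6% of their bases were soft-masked as repeats in the assembly. In 2502 other promoters whose sites all lie outside CpG islands, shores and shelves, the medians were 48.2%, 18 CpGs, 0.325 and 17.3%. In all, 111 of the 122 sites (91.0%) were annotated outside islands, shores and shelves, a class that holds 11.8% of all sites of the table. The exceptions were the 10 sites of *Vmn1r4*, which lie in a CpG island 50 bp or more from the start of *Nt5c3*, a gene on the opposite strand, and the single site of *Taar6*, in a shore. Sites lay 1 to 979 bp upstream of the gene start (median 608.5 bp), and 53 of them were in a CCGG.

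Several measured stretches also belong to other annotated features. All 6 sites of *Olfr1344* lie in an intron of *Gm20715* and all 4 sites of *Tas1r2* in an intron of *Gm21969*, both on the same strand as the receptor gene. Of the 11 sites of *Vmn2r60*, 5 lie in the exon of *Ccnb1-ps*, a processed pseudogene of a cyclin gene on the opposite strand. For the other genes the nearest annotated gene was mostly another receptor gene or pseudogene of the cluster. On chromosome 7, *Olfr582*, *Olfr601* and *Olfr658* belong to a cluster of 156 Olfr genes between 102476579 and 105369355, which is the known location of the fish-like class I odorant receptors.

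Depth limited the precision at single sites. Once the authors' scaling of coverage had been undone, the median coverage of the receptor sites was 37 to 55.5 reads in control-F1 lines and 36.5 to 47.5 reads in ICSI-F1 lines, with 10 to 214 reads at single sites. Reads carried no molecular identifiers, so that confidence intervals given here cover counting error only. As a check of the cell type, 12 of 13 measured promoters of spermatogonial and germ cell genes had a mean level under 20%. So had 3 of 5 promoters of somatic genes of the testis or feeder layer (*Col1a1*, *Sox9* and *Twist1*), and 84.3% of all promoters. Promoter levels alone therefore did not separate the cell types. Of 5 olfactory neuron genes, only *Gnal* had sites, with control-F1 lines at 21.8% ± 6.35 and ICSI-F1 lines at 23.4% ± 2.22 (SD, n = 4 each).

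Receptor promoters were highly methylated in GS cells. A promoter level was the mean over the sites of a gene in a line, and its average over the 26 genes was 69.3, 77.0, 76.0 and 77.5% in control-F1 lines 29, 37, 44 and 45 and 78.0, 79.0, 76.9 and 75.7% in ICSI-F1 lines 11, 17, 20 and 21. Line values are given in this order throughout. Line 29 was the lowest, and the other 7 lines lay within a few percentage points of one another, with the groups overlapping. Over all 9224 promoters the 8 lines ranged from 13.9 to 17.4%, and over the 2502 other promoters outside islands from 31.5 to 36.04%.

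Of the 26 promoters, 19 had a mean level of 80% or more over the 8 lines, 3 lay between 20 and 80% (*Olfr1474*, *Olfr1447* and *Olfr212*) and 4 lay under 20% (*Olfr1342*, *Vmn1r4*, *Olfr658* and *Vmn2r60*). Among the other promoters outside islands the shares were 24.9%, 15.3% and 59.8%. The plot of promoter levels by line shows that most receptor promoters cluster near complete methylation and that a handful vary widely between lines.

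**Figure D1:**
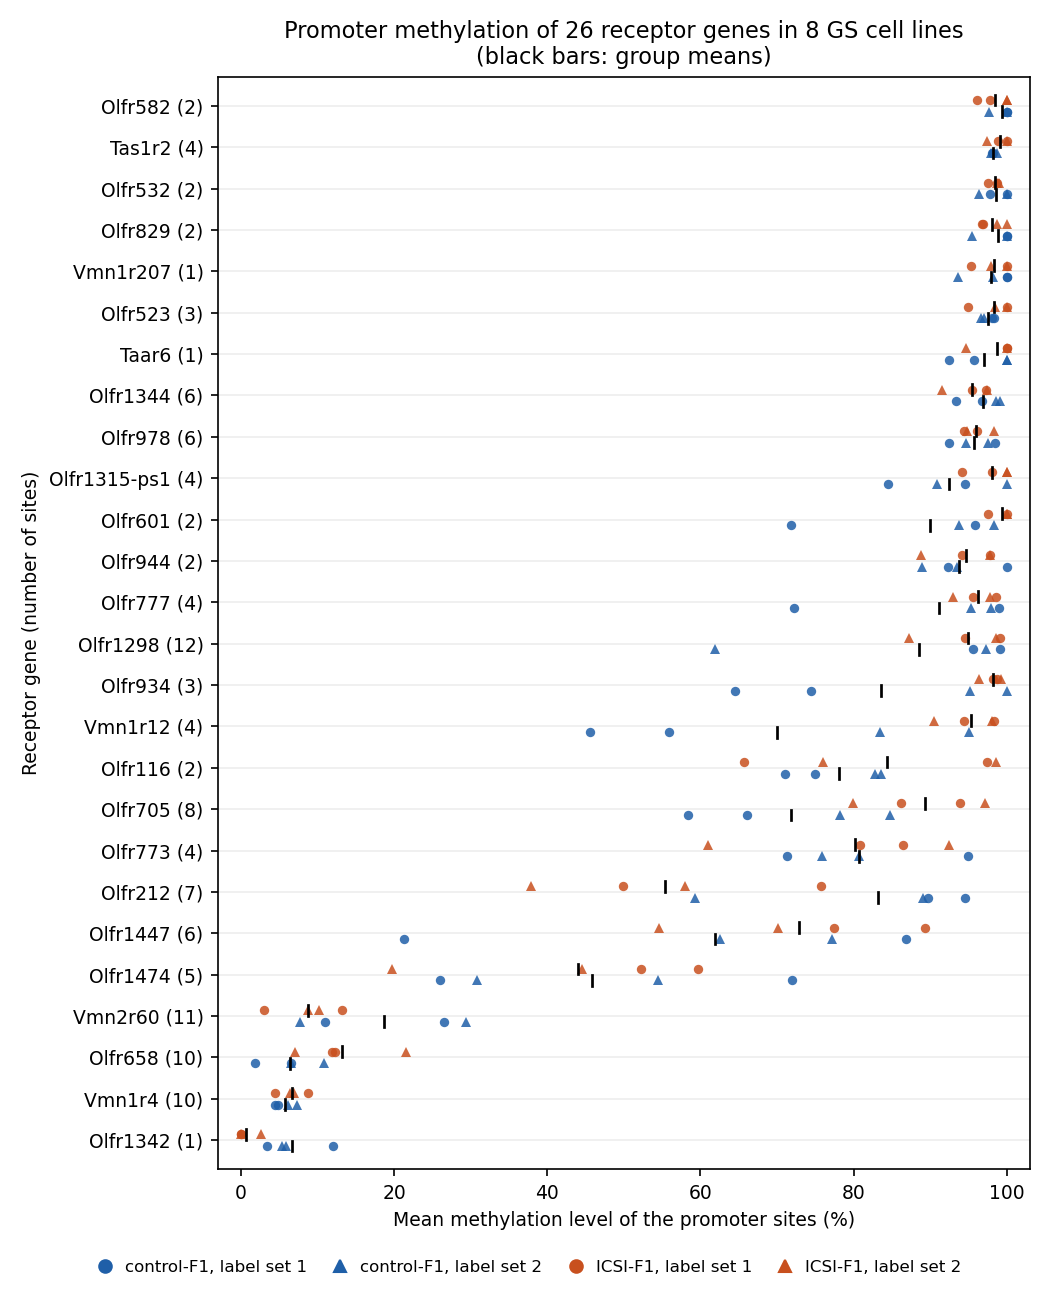
Mean promoter methylation level (%, x axis) of each of the 26 receptor genes (y axis, number of sites in parentheses) in each of the 8 GS cell lines, with control-F1 lines in blue, ICSI-F1 lines in orange, label set 1 as circles, label set 2 as triangles and group means as black bars. A total of 19 promoters have a mean of 80% or more and 4 lie under 20%, and the groups do not overlap only for *Olfr1342*.

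The most methylated members were *Olfr582*, *Tas1r2* and *Olfr532*. The *Olfr582* promoter, of a class I odorant receptor gene, had 100, 100, 97.7 and 100% in control-F1 lines and 96.1, 97.8, 100 and 100% in ICSI-F1 lines. *Tas1r2*, whose product pairs with the Tas1r3 protein to form the sweet taste receptor, had 98.2, 98.0, 98.7 and 98.0% against 100, 98.9, 97.4 and 100%. All 4 of its sites lie within 73 bp of the gene start and none of them was under 92.2% in any line, so that methylation reached up to the start of this gene. *Olfr532* had 100, 97.8, 96.4 and 100% against 97.5, 98.8, 99.0 and 98.8%. The groups overlapped at each of these 3 genes, and the largest of their differences was −0.946 percentage points.

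*Taar6*, a receptor for amines, had 92.5, 95.7, 100 and 100% at its single site in control-F1 lines and 100, 100, 94.7 and 100% in ICSI-F1 lines. The 8 members next in order (*Olfr829*, *Vmn1r207*, *Olfr523*, *Olfr1344*, *Olfr978*, *Olfr1315-ps1*, *Olfr601* and *Olfr944*) had means over the 8 lines of 94.2 to 98.5%. The remaining highly methylated ones outside the called genes and *Olfr1298* were *Olfr777* at 93.7%, *Olfr116* at 81.3% and *Olfr773* at 80.4%.

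The 4 promoters with little methylation were of different kinds. *Vmn1r4* was the only member in a CpG island and had 4.45, 4.83, 7.35 and 6.18% in control-F1 lines and 4.38, 8.77, 6.91 and 6.39% in ICSI-F1 lines, close to one another. Of its 10 sites 9 had means of 1.35 to 4.25%. The minus-strand cytosine at position 56923989 on chromosome 6 stood apart with 28.6 to 45.7% in the 8 lines, while its plus-strand partner averaged 3.88%. This CpG lies in a CCGG, where MspI cuts. *Olfr658* had 6.51, 1.79, 10.8 and 6.48% against 11.9, 12.3, 6.99 and 21.6%, and *Vmn2r60* had 26.6, 10.99, 29.4 and 7.75% against 3.05, 13.2, 10.2 and 8.71%. For both genes the groups overlapped, and 1 ICSI-F1 line (line 21) and 2 control-F1 lines (lines 29 and 44), respectively, stood above the rest.

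*Olfr1342* was the only receptor promoter whose groups did not overlap, and it rests on 1 cytosine (position 118692811 on chromosome 4, 55 bp upstream). Its level was 12, 3.45, 5.88 and 5.41% in control-F1 lines and 0, 0, 2.56 and 0% in ICSI-F1 lines. The ICSI-F1 values of 0 came from 50, 36 and 22 reads, which allow levels of up to 6, 8.33 and 13.6%, and 3 of the 4 control-F1 values lie under the first of these limits. The difference of −6.04 percentage points had the smallest p that 4 lines against 4 permit (p = 0.0286 by an exact two-sided permutation test with 70 arrangements), which 1.46% of all promoters reached, and the adjusted value over all promoters was 1. Thus 1 of 26 receptor promoters reached this p. Without line 44 it was reached by 4, and the share of all promoters was not determined in that setting. *Olfr1342* itself no longer reached the smallest p when line 29, 11, 17, 20 or 21 was left out (exact permutation test, p = 0.0571 each). With limma on the promoter levels 0 of 9224 promoters passed after adjustment, and 4 receptor promoters and 2.52% of all promoters had an unadjusted p under 0.05.

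Methylation was higher at receptor promoters measured farther from the gene start. The 8 members with a site within 400 bp of the start held 2 of the 19 highly methylated promoters (*Tas1r2* and *Olfr116*), all 3 intermediate ones and 3 of the 4 with low levels. Among the 18 members whose nearest site lay farther away, 17 had 80% or more, and *Vmn2r60* was the exception. In the other promoters outside islands, 16.3% with a near site and 59.9% without one had 80% or more. Counted by site outside islands, 20, 22.2, 64.1 and 97.0% of the receptor sites in successive steps of 250 bp had a mean level of 80% or more, against 7.19, 19.96, 35.8 and 46.2% of other sites. These limits were chosen after the values had been seen, and sites of 1 gene share their source. Of the 8 near members only *Olfr1447* had soft-masked sites, and of the 18 others only *Taar6*, *Olfr829* and *Vmn2r60* had none. Distance and repeat content thus largely went together, and their separate parts were not tested.

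**Figure D2:**
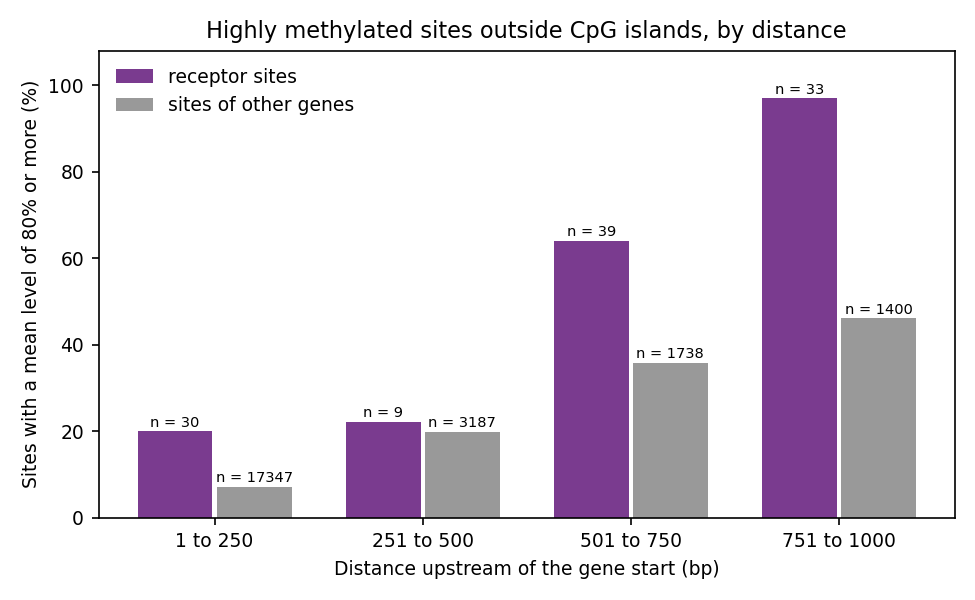
Percentage of sites outside CpG islands with a mean methylation level of 80% or more over the 8 lines (y axis) by distance upstream of the gene start (bp, x axis), for receptor sites (purple) and sites of other genes (grey), with the number of sites above each bar. Among receptor sites the share is 20% within 250 bp and 97.0% beyond 750 bp, against 7.19% and 46.2% of other sites.

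Sites past a rule of 20 percentage points were then counted. The methods of the study ask for a change of this size with no sample reversed, but do not say against which value a reversal is judged. In the reading used here, hypermethylated sites had a group difference (ICSI-F1 minus control-F1) over 20 percentage points with no ICSI-F1 line at or under the control mean, and hypomethylated sites were the mirror image. The rule includes no test of significance. Among the receptor sites 10 of 122 were hypermethylated, where 0.274% of all sites and 1.43% of sites outside islands, shores and shelves were. Another 6 were hypomethylated, where 0.0506% of all sites and 0.296% of those outside islands were. All 16 lay outside islands, and they belonged to 7 genes. Of them 9 were in a CCGG, as were 43.4% of the receptor sites. *Vmn1r12* had 4, *Olfr705* 3 and *Olfr934*, *Olfr1447* and *Olfr1474* 1 hypermethylated site each, and *Olfr212* had 4 and *Vmn2r60* 2 hypomethylated sites. Without line 29 the hypermethylated sites were 6. In a stricter reading, which also required that the groups did not overlap, 3 receptor sites were hypermethylated (0.0673% of all sites) and 1 was hypomethylated (0.00884% of all sites). They were 1 site of *Vmn1r12* and 2 of *Olfr705*, and 1 of *Olfr212*.

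The values nearest to the limit were 20.02 points at *Olfr1474*, 20.2 at *Vmn1r12* (position 57155940) and 21.001 at *Olfr1447* on the inside, and 19.1 and 18.3 points at 2 further cytosines of *Olfr705* and −18.1 at *Olfr212* (position 116506335) on the outside. Within label set 1 alone the rule called 20 hypermethylated and 8 hypomethylated receptor sites, where 0.871% and 0.211% of all sites were called. Within label set 2 alone it called 3 and 9, where 0.42% and 0.264% of all sites were called. The plot of the called sites shows that at the 8 hypermethylated sites of *Vmn1r12*, *Olfr705* and *Olfr934*, lines 29 and 37 were the lowest of the 8 lines.

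**Figure D3:**
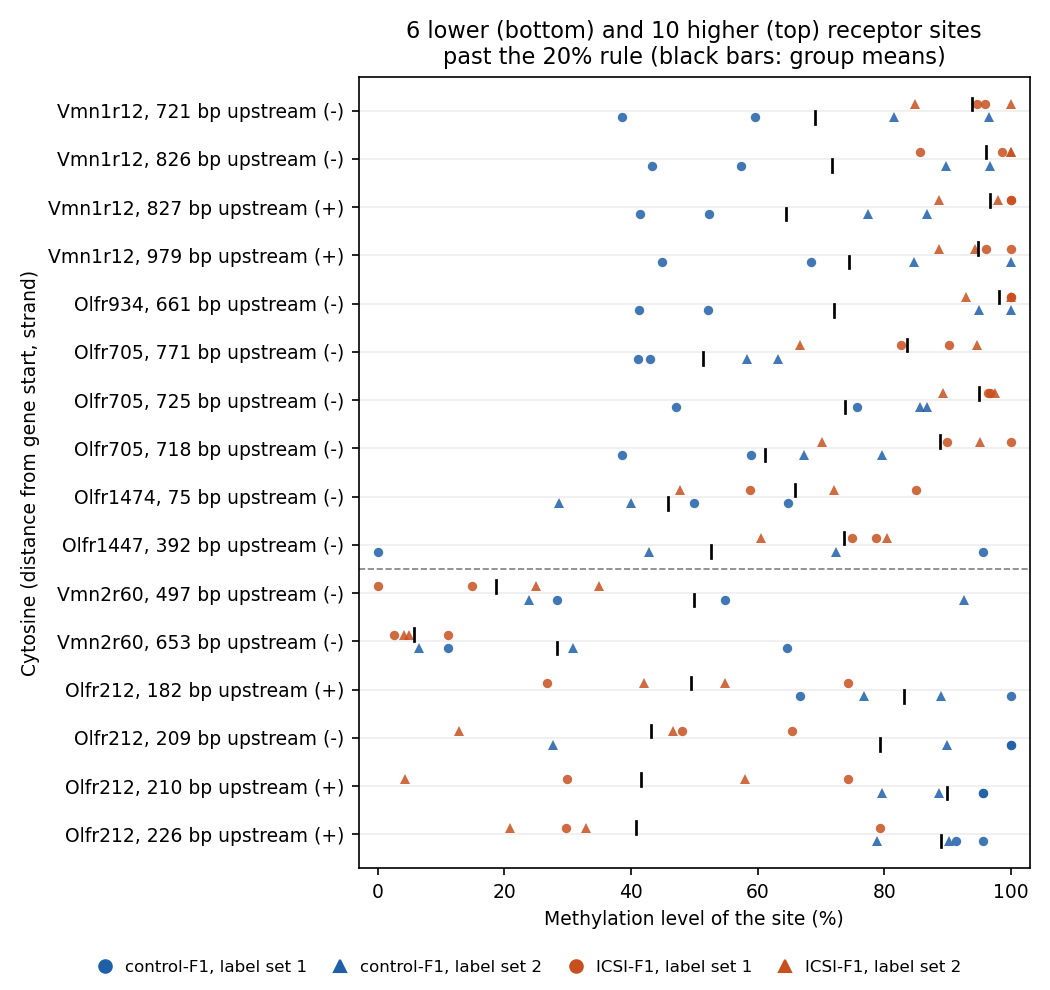
Methylation level (%, x axis) of the 16 receptor sites past the 20% rule (y axis, named by gene, distance upstream and strand) in each of the 8 lines, with control-F1 lines in blue, ICSI-F1 lines in orange, label set 1 as circles, label set 2 as triangles and group means as black bars. The 10 higher sites are above the dashed line and the 6 lower sites under it, and at 12 of the 16 sites the groups overlap.

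No receptor site passed the false discovery rate in the logistic model that served as the main test. This quasi-binomial model compares methylated and unmethylated reads between the groups, with the dispersion between lines moderated across sites, and 119 of the 122 receptor sites varied enough to be tested. At a false discovery rate of 0.05 it called 0 receptor sites, and 0% of 196818 sites tested, and the lowest adjusted p among the receptors was 0.161. At an unadjusted p under 0.05, 18 receptor sites were higher and 9 lower in ICSI-F1 lines, where 2.6% and 4.47% of all sites tested were. On simulated data such unadjusted p-values ran too small. Without line 44 the main model called 4 receptor sites (0.0363% of all sites tested), without line 11 it called 2 (0.00306%) and without line 20 it called 1 (0.00258%), in *Olfr212* and *Vmn1r12*.

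Other ways to moderate the dispersion did call receptor sites. The plan raised the dispersion to 1 before the moderation, and this order was changed for the main model after calls had been seen. The versions with a trend were also added after the data had been seen. With the dispersion raised to 1 before the moderation 7 receptor sites passed (0.116% of all sites tested), with moderation towards a trend on the level 4 passed (0.0721%), and with a robust trend 6 passed (0.0716%). On simulated data the first of these made many more false calls than the main model, and the versions with a trend did not. Position 57156092 of *Vmn1r12* and positions 116506290, 116506306 and 116506334 of *Olfr212* were called by all 3. With sites of at least 20 scaled reads in every line, the main model called 3 receptor sites (0.00453% of all sites tested), which were the first 3 of these. With limma on log ratios, with the label set as a covariate or with the coverage scaling undone the count was 0. In the last of these the lowest adjusted p among the receptors (logistic model) was 0.0576. The count was also 0 with the dispersion of each site alone, a version known from earlier work on these data to have no power at this size.

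The largest negative differences were at *Olfr212* (ENSMUSG00000053251, chromosome 6, 116506516-116517965, plus strand), an odorant receptor gene with 7 sites in the window shown above. At position 116506290 (226 bp upstream), the level was 95.7, 91.3, 78.8 and 90.2% in control-F1 lines and 79.4, 29.7, 32.9 and 20.9% in ICSI-F1 lines. At position 116506306 it was 95.7, 95.7, 79.6 and 88.6% against 74.3, 29.9, 58.0 and 4.35%. At the first of these the values of lines 44 and 11 overlapped, and at the second the groups were apart.

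The spread among the ICSI-F1 lines at these cytosines exceeded counting error. At position 116506306, line 21 had 6 methylated of 138 reads (95% Wilson interval 2.01 to 9.16%) and line 11 had 52 of 70 (63.0 to 83.1%). The group means were 89.9% ± 7.60 and 41.6% ± 30.9 (SD, n = 4 each), a difference of −48.3 percentage points. Its adjusted p in the logistic model (dispersion moderated with limma) was 0.176, and that of position 116506290 was 0.161. The difference was −43.6 within label set 1 and −53.0 within label set 2.

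By group means the other cytosines of the *Olfr212* window were lower as well, except the plus-strand one 91 bp upstream. At position 116506334 the level was 66.7, 100, 76.8 and 89.0% against 74.3, 26.7, 42.0 and 54.8%, and at position 116506307, the minus-strand partner of 116506306, it was 100, 100, 27.7 and 90% against 65.4, 48.1, 46.7 and 12.8%. The groups overlapped at both. The plus-strand cytosine at position 116506425, 91 bp upstream, had 100% in all 8 lines with 11 to 28 reads, whereas its minus-strand partner ranged from 24.0 to 100%.

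Line 44 was methylated differently on the 2 strands of *Olfr212*. It had 78.8, 79.6 and 76.8% at the plus-strand cytosines 226, 210 and 182 bp upstream and 27.7, 28.0 and 24.0% at the minus-strand cytosines 209, 181 and 90 bp upstream. The other control-F1 lines had 66.7 to 100% at all of them, as the plot of the *Olfr212* cytosines shows. Over the whole promoter the level was 89.7, 94.6, 59.3 and 89.0% in control-F1 lines and 75.7, 49.9, 58.0 and 37.9% in ICSI-F1 lines. The difference of −27.8 percentage points had p = 0.0571 (exact two-sided permutation test, 1 after adjustment over all promoters), with −29.3 in label set 1 and −26.2 in label set 2, and line 44 alone of the control-F1 lines overlapped the ICSI-F1 lines.

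**Figure D4:**
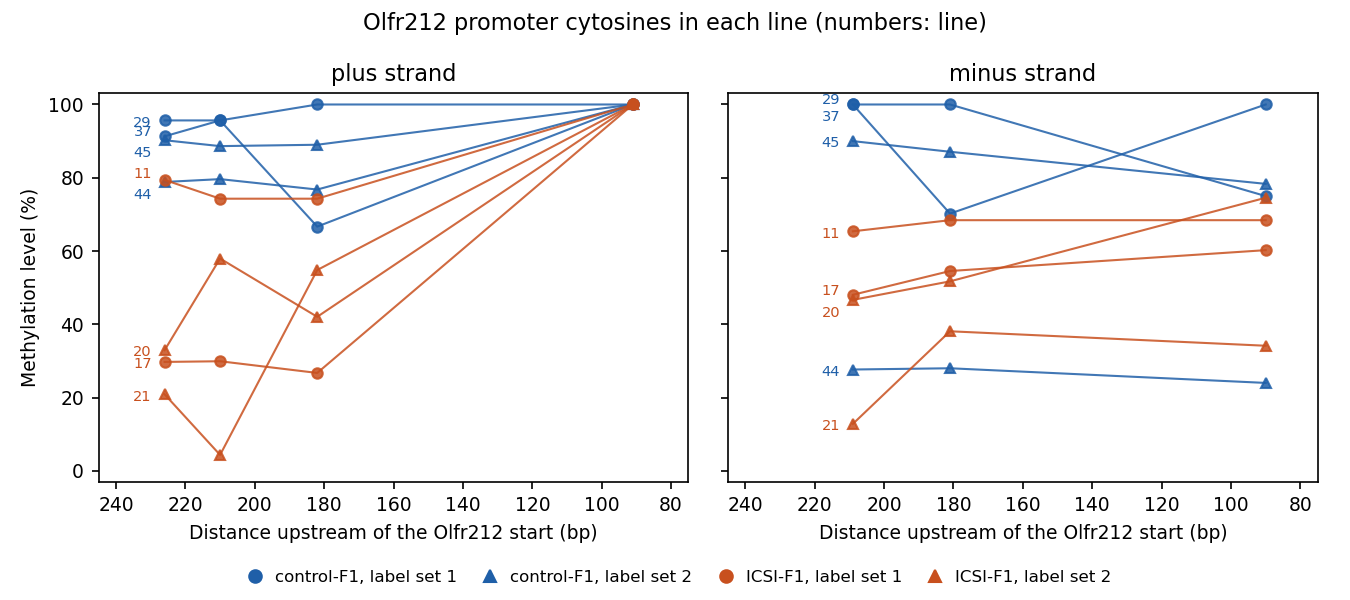
Methylation level (%, y axis) of the 4 plus-strand (left) and 3 minus-strand (right) cytosines of the *Olfr212* promoter by distance upstream of the gene start (bp, x axis), with a line for each GS cell line, control-F1 in blue, ICSI-F1 in orange, label set 1 as circles and label set 2 as triangles. Line 44 has 76.8% or more on the plus strand and 28.0% or less on the minus strand, and the plus-strand cytosine 91 bp upstream is at 100% in all 8 lines.

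*Vmn2r60*, a vomeronasal receptor of the family with a long extracellular domain, had the other 2 hypomethylated sites. At position 42107273 the level was 54.9, 28.4, 92.6 and 23.9% in control-F1 lines and 0, 14.9, 25 and 35% in ICSI-F1 lines (20 to 46 reads). At position 42107117, inside the cyclin pseudogene, it was 64.7, 11.1, 30.8 and 6.52% against 2.5, 11.1, 4.17 and 5%. Lines 29 and 44 were high at both cytosines, lines 37 and 45 lay among the ICSI-F1 lines, and the groups overlapped. All 11 measured cytosines are on the minus strand, with means over the 8 lines from 4.38 to 34.3%, and the promoter means differed by −9.88 percentage points, within the spread of the lines (p = 0.229 by an exact two-sided permutation test).

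*Vmn1r12* (ENSMUSG00000057981, chromosome 6, 57156919-57165329, plus strand), a pheromone receptor gene, had the largest promoter difference upwards. All 4 of its sites, 721 to 979 bp upstream, were hypermethylated. At position 57156092 the level was 41.5, 52.3, 86.8 and 77.5% in control-F1 lines and 100, 100, 88.7 and 97.9% in ICSI-F1 lines (46 to 193 reads), and the groups did not overlap. The means were 64.5% ± 21.2 and 96.6% ± 5.42 (SD, n = 4 each), and the adjusted p in the logistic model was 0.176. Over the promoter the level was 45.6, 55.9, 95.04 and 83.4% against 94.5, 98.3, 90.5 and 98.1%. Lines 29 and 37 carried most of this difference, which was 45.6 percentage points in label set 1 and 5.09 in label set 2 (25.4 in all, exact two-sided permutation test, p = 0.0857).

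*Olfr705*, an odorant receptor gene on chromosome 7 (106871870-106876891, minus strand), had 8 sites 621 to 771 bp upstream. At position 106877662 the level was 41.2, 43.0, 58.3 and 63.2% in control-F1 lines and 82.6, 90.2, 66.7 and 94.7% in ICSI-F1 lines, and at position 106877616 it was 47.1, 75.6, 85.7 and 86.8% against 96.7, 96.5, 89.3 and 97.6%. The groups did not overlap at either cytosine. Over the promoter the level was 58.4, 66.04, 84.8 and 78.3% against 86.2, 93.9, 79.96 and 97.2%, where only line 20 lay among the control-F1 lines. The difference of 17.4 percentage points had p = 0.0571 (exact two-sided permutation test) and was 27.9 in label set 1 and 7.03 in label set 2. Of the CpG at 106877512 and 106877513, the plus strand had 63.9% and the minus strand 96.5% on average, a difference present in 7 of 8 lines.

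*Olfr934*, an odorant receptor gene on chromosome 9, had 64.5, 74.4, 100 and 95.2% in control-F1 lines and 98.2, 98.8, 96.4 and 99.3% in ICSI-F1 lines. At its called cytosine (position 38988976) the level was 41.3, 52.1, 100 and 94.9% against 100, 100, 92.9 and 100%. Lines 29 and 37 again stood apart from the other 6 lines there and in the promoter level. At the plus-strand partner (position 38988975) they did not, where the level was 100, 100, 100 and 94.3% against 100, 96.3, 97.8 and 100%. The promoter difference of 14.6 percentage points (p = 0.2, exact two-sided permutation test) was 28.98 in label set 1 and 0.228 in label set 2. Thus in *Vmn1r12*, *Olfr705* and *Olfr934* the difference moved with the label set, and the part of the label set in it was not tested.

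*Olfr1447* and *Olfr1474*, odorant receptor genes on chromosome 19, were the most variable members. *Olfr1447* had 21.3, 86.8, 62.5 and 77.2% in control-F1 lines and 89.4, 77.5, 70.1 and 54.6% in ICSI-F1 lines, and *Olfr1474* had 26.04, 71.9, 30.8 and 54.4% against 59.7, 52.2, 44.5 and 19.8%. Lines of the same group lay at both ends of the range for both genes, and neither promoter differed beyond that spread (exact two-sided permutation tests, p = 0.6 and 0.886). The called cytosine of *Olfr1447* (position 12904135) had 0, 95.6, 42.9 and 72.4% against 75, 78.8, 80.4 and 60.6%, where the 0% of line 29 came from 10 reads and allows a level of up to 30%. That of *Olfr1474* (position 13469490) had 64.9, 50, 28.6 and 40% against 85, 58.8, 72 and 47.7%. Its plus-strand partner (position 13469489) had 45.6, 66.2, 43.2 and 53.8% against 68.75, 40.5, 72.7 and 25%, a difference of −0.45 percentage points.

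*Olfr1298*, the odorant receptor gene with the most sites (12, on chromosome 2), was uniform apart from 1 line. Its promoter had 99.2, 95.6, 61.9 and 97.3% in control-F1 lines and 99.1, 94.6, 87.2 and 98.5% in ICSI-F1 lines. Line 44 was the lowest, with 28.6 to 69.2% at 10 of the 12 cytosines and 100% at the other 2, both on the plus strand. Line 20 had 73.8 to 86.3% at the minus-strand cytosines and 90.5 to 100% at the plus-strand ones. *Olfr658* had 1 cytosine without overlap, at position 104647410, with 0% in all 4 control-F1 lines and 5, 4.41, 4.76 and 58.3% in ICSI-F1 lines. The control-F1 values rest on 26 to 85 reads and allow up to 3.53 to 11.5%, which includes the values of 3 of the 4 ICSI-F1 lines, and line 21 alone stood above.

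Averaged over the 26 receptor genes, the groups differed by less than the SD of the control-F1 lines. Control-F1 lines averaged 74.9% ± 3.81 and ICSI-F1 lines 77.4% ± 1.43 (SD, n = 4 each), which differ by 2.48 percentage points. It was 5.41 within label set 1 and −0.461 within label set 2, and 0.596 without line 29. Promoter levels were higher in ICSI-F1 lines for 17 members and lower for 9, with a median difference of 0.885 percentage points, and over all promoters 4109 were higher and 5106 lower with a median of −0.161. Promoters outside islands had a median of 0.0519. Over sites, 4 of 122 were higher without overlap between the groups (0.427% of all sites) and 3 were lower (0.679% of all sites). They lay in *Vmn1r12* (1), *Olfr705* (2) and *Olfr658* (1), and in *Olfr212*, *Vmn1r4* and *Olfr1342* (1 each).

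Receptor promoters had a larger spread between lines of a group than other promoters. The median SD within groups was 5.01 percentage points, against 2.86 in other promoters outside islands. It was 3.90, 19.5 and 4.45 for members with levels under 20%, of 20 to 80% and of 80% or more, against 2.49, 11.001 and 2.65. Receptor promoters have fewer sites than all promoters of the table (median 4 against 13). The median for the other promoters outside islands was not determined, and the part of the number of sites in this spread was not tested. Line 29 was the lowest line in 8 of 25 receptor promoters with a single lowest line (32%) and in 20.2% of the other promoters outside islands. The strands of a CpG differed by more than 20 points in 48 of 304 values of receptor CpGs per line (15.8%), against 10.3% elsewhere outside islands. On average the widest gaps (plus minus minus strand) were 35.7 points at *Olfr212* (position 116506425), −32.6 at *Olfr705* (106877512) and −31.7 at *Vmn1r4* (56923988). All of these CpGs lie in a CCGG, where MspI cuts. Other CpGs in a CCGG had narrow gaps, such as 2.55 points at *Olfr944* (39201326), and the part of the cut site was not tested.

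The called sites divided by sequence. Of the 111 receptor sites outside islands, 67 (60.4%) lie in bases that the assembly soft-masks as repeats, against 5.90% of other sites. Masked receptor sites had a mean level of 88.8% and unmasked ones of 43.5%, against 44.97% and 18.9% of other sites. Of the 10 hypermethylated receptor sites 9 were masked, the exception being that of *Olfr1474*, and all 6 hypomethylated ones were unmasked. Among other sites 3.55% of the masked and 1.26% of the unmasked ones were hypermethylated, and 1.21% and 0.214% were hypomethylated, so that elsewhere both kinds of call were more frequent in masked sequence. This division was looked for after the values had been seen.

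The windows of 6 members, *Vmn1r12*, *Olfr705*, *Olfr532*, *Olfr582*, *Olfr601* and *Olfr978*, hold copies of 1 repeated sequence. Each pair of them aligned over 145 to 186 bases with 89.8 to 94.2% identity, in the same or the opposite direction, which can be followed in the sequences of *Vmn1r12*, *Olfr705* and *Olfr532* above. Over the table, 32 sites of 10 receptor genes lay in sequence that aligned to the *Vmn1r12* window over at least 80 bases with at least 85% identity. Their mean level was 76.3, 83.7, 92.9 and 89.5% in control-F1 lines and 92.5, 96.7, 92.8 and 95.3% in ICSI-F1 lines, and all 7 called sites among them belonged to *Vmn1r12* and *Olfr705*.

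On average the other copies did not share the low levels of lines 29 and 37 to the same extent. The 20 sites of the other 8 receptor genes had 89.5, 96.4, 95.8 and 95.3% against 94.6, 97.5, 98.3 and 94.0%, a difference of 1.87 percentage points. Line 29 was nevertheless low at 2 of these 8 genes, with 71.9% at *Olfr601* (the others 93.75 to 100%) and 72.2% at *Olfr777* (the others 93.02 to 98.99%). The 47 sites in such copies upstream of 22 genes that are not receptors had 73.9, 84.8, 82.1 and 81.1% against 78.9, 82.4, 82.6 and 78.9%, a difference of 0.246 percentage points with 2 hypermethylated and 2 hypomethylated sites. Line 29 was the lowest line in both of these sets and line 37 was not, as the plot of the shared sequence shows. Reads from repeats can align to the wrong copy. The 51 bases around position 57155940 of *Vmn1r12* occur 60 times in the genome and those around position 57156198 4 times. Those around the called site of *Olfr934* and position 42107117 of *Vmn2r60* also occur 4 times, and those around position 42107273 of *Vmn2r60* 2 times. Those around the other 11 called sites occur once, among them all called sites of *Olfr705* and *Olfr212* and position 57156092 of *Vmn1r12*.

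**Figure D5:**
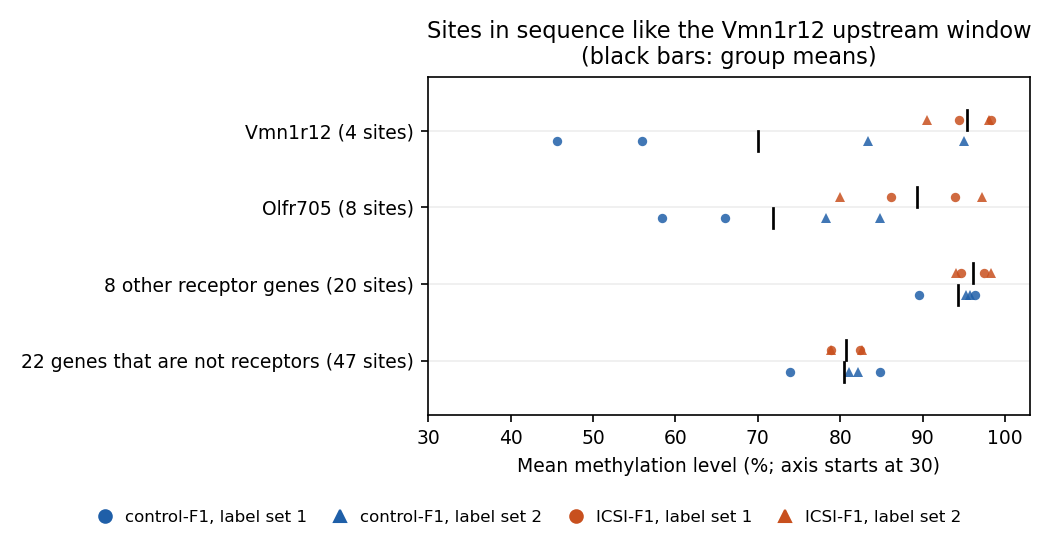
Mean methylation level (%, x axis, starting at 30) in each of the 8 lines of the sites in sequence like the *Vmn1r12* window, for *Vmn1r12*, *Olfr705*, 8 other receptor genes and 22 genes that are not receptors, with control-F1 lines in blue, ICSI-F1 lines in orange, label set 1 as circles, label set 2 as triangles and group means as black bars. The 2 control-F1 lines of label set 1 have 45.6 and 55.9% at *Vmn1r12* and 89.5 and 96.4% at the 8 other receptor genes.

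The genes that act with the receptors mostly had low promoter levels (mean under 20%), as had 84.3% of all promoters. Of 55 listed genes for sensory signalling, receptor transport and receptor choice, 22 had promoter sites (437 sites), and 18 of them had a mean level under 20%. Their mean was 10.3% ± 3.602 for control-F1 and 10.7% ± 2.03 for ICSI-F1 lines (SD, n = 4 each), and 12 were higher and 10 lower. Of their 437 sites 0 passed the 20% rule, where 0.274% of all sites were hypermethylated and 0.0506% hypomethylated. Up to 3 passed when 1 line was left out. The highest count was without line 44, where 0.545% and 0.0579% of all sites were called. Among them, *Kdm1a*, whose product is a histone demethylase needed for receptor choice, had 2.47% and *Lhx2*, a transcription factor that binds odorant receptor enhancers, 21.7% on average over the 8 lines. The other genes at 20% or more were *Lhx2*, *Gnal*, *Plcb2* and *Ano2*. *Plcb2*, a phospholipase of taste cells, ranged from 2.94 to 51.7% between lines with a mean of 21.3%. The highest was *Ano2*, a chloride channel of olfactory cilia, with 92.9, 16.3, 85.9 and 23.2% in control-F1 lines and 16.8, 56.5, 51.4 and 97.9% in ICSI-F1 lines. Both genes were singled out after their values had been seen, and the lines of *Ano2* lay at both ends of the range in both groups.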

How the data were processed

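Germline stem cell DNA had been digested with MspI and sequenced by RRBS. Per the methods and processing notes of the study, the authors trimmed reads with Trim Galore 0.5.0, mapped them with Bismark 0.20.0 to the mm10 genome, and used methylKit 1.16.0 (the methods name another version) to count methylated and unmethylated reads per cytosine, scale coverage between the lines, drop sites under 10 reads or in the top range of coverage, and join sites found in all 8 lines with the strands kept apart. The deposited values are these scaled counts, a score rather than raw counts, which were annotated by the authors to promoters within 1 kb upstream of a gene start. Multiplying factors were read from the steps of the values, and all values came back as whole reads, on the assumption that the lowest coverage was 10 reads.

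Levels were methylated reads over all reads of a site, and a promoter level was the unweighted mean over its sites. All sites and promoters of the table were tested, and only the receptors are printed. The 20% rule of the study does not say how a reversed sample is judged. Here a site was left out when any ICSI-F1 line did not share the direction of the group difference relative to the control mean, and stricter readings were alternatives. The logistic model (quasi-binomial, dispersion moderated with limma 3.58.1 in R 4.3.3, then not below 1, F test, Benjamini-Hochberg adjustment) was checked on simulated data, and the order of moderation and floor was chosen there. Other versions had been seen on the real data before that choice, and the plan had set the floor before the moderation. Promoters were compared by exact two-sided permutation tests. Gene starts, repeats and sequences came from GRCm38, read with pyfaidx 0.9.0.4, and analyses ran in Python 3.11.15 with numpy 2.4.6, scipy 1.17.1 and pandas 2.3.3.

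Genes named with their values were *Olfr212*, members with a called site, the 3 lowest and the 3 highest members, the member with the most sites in each family, those in an island, and the 2 with the largest spread. The members and lists were chosen with earlier results of these data known. Alternatives were other thresholds and forms of the rule, at least 20 reads, merged strands, pooled reads, label sets, other models and leaving out each line.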

Additional observations from a re-analysis of the deposited data

Results flagged for a closer look

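Each group of 4 lines was searched for 1 line that stood apart from the other 3 (Dixon's ratio above its 95% critical value), over the 26 promoters and the 16 called sites. Of 84 groups tested, 12 had such a line. The chance rate of about 1 in 20 assumes independent values without bounds. Levels are bounded and the called sites belong to tested promoters, so that this rate cannot be set against the count. Control-F1 line 44 stood apart at the promoters of *Olfr1298* (61.9%, the others 95.6 to 99.2%), *Olfr212* (59.3%, the others 89.0 to 94.6%) and *Olfr582* (97.7%, the others 100%), and at position 116506307 of *Olfr212* (27.7%, the others 90.0 to 100%). Control-F1 line 29 stood apart at *Olfr777* (72.2%, the others 95.3 to 99.0%) and line 45 at *Olfr829* (95.4%, the others 100%). Among the ICSI-F1 lines, line 20 stood apart at *Taar6* (94.7%, the others 100%), *Olfr1342* (2.56%, the others 0%), position 38988976 of *Olfr934* (92.9%, the others 100%) and position 106877616 of *Olfr705* (89.3%, the others 96.5 to 97.6%). Line 11 stood apart at *Olfr601* (97.5%, the others 100%) and at position 57156093 of *Vmn1r12* (85.7%, the others 98.6 to 100%). Where the other 3 lines share the value 100% or 0%, a single read can set a line apart.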

How the results depend on the processing

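The hypermethylated receptor sites numbered 10 (0.274% of all sites were called). At a limit of 10 percentage points they were 24 (0.841%), and at 30 points 2 (0.0692%). With control-F1 lines checked as well they were 5 (0.189%), and with the groups apart 3 (0.0673%). With merged strands they were 6 (0.251%), none of them in *Olfr934* or *Olfr1474*. In label set 1 they were 20 (0.871%), and 3 in label set 2 (0.42%). When 1 line was left out they were 6 to 14 (0.2 to 0.545%), with 6 (0.291%) without line 29. The hypomethylated sites numbered 6 (0.0506% of all sites), and 1 (0.00884%) when the groups had to be apart. When 1 line was left out they numbered 5 to 8 (0.055 to 0.0923%). The logistic model gave 0 sites, and 7 (0.116% of all sites tested) in the planned order, with the dispersion raised to 1 before the moderation. It gave 4 (0.0721%) with the trend and 6 (0.0716%) with the robust trend, both chosen after seeing the data. The count was 3 (0.00453%) with at least 20 scaled reads and 0 to 4 (0 to 0.0363%) when 1 line was left out. The mean level difference of 2.48 percentage points was 5.41 in label set 1 and −0.461 in label set 2, and 0.596 to 3.33 when 1 line was left out. Promoters at the smallest exact p numbered 1 (1.46% of all promoters), and 0 among members with 3 or more sites and 0 with limma. When 1 line was left out they numbered 0 to 4, and the share of all promoters was not determined there. Called sites of the pathway genes numbered 0, and 3 at 10 points, where 0.841% of all sites were hypermethylated and 0.519% hypomethylated. They numbered 0 to 3 when 1 line was left out (0.2 to 0.545% and 0.055 to 0.0923% of all sites). The sign turned in label set 1 for *Olfr1474* (6.98) and *Olfr1298* (−0.509), in label set 2 for *Taar6* (−2.63), *Olfr1447* (−7.51), *Vmn1r4* (−0.114), *Olfr582* (1.163) and *Olfr532* (0.731), and when 1 line was left out for *Olfr1447* (−2.62 without line 29, up to 19.2), *Olfr532* (−0.742 to 0.472), *Olfr1474* (−8.34 to 6.95) and *Olfr1298* (−2.48 without line 44, up to 9.93). Without line 44, the promoters of *Vmn1r12* and *Olfr934* reached the smallest p of that design (exact permutation test, p = 0.0286). The cause of these changes was not tested. Of the comparisons of single genes with an alternative, 163 were unchanged, 15 turned sign, 8 moved in size, 5 became weaker and 3 stronger. Within a label set, unchanged meant the same sign and a shift under the SD within groups. Elsewhere it meant the same sign and the same side of an unadjusted 0.05 in the exact permutation test. All named genes but *Olfr1342* began above that limit, so that few could change side. No paired analysis was possible because the groups share no replicate numbers. Sites of 10 to 40 reads limit single levels to wide intervals.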
